A study of Mus musculus with 4 samples.

Results

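The 10 genes described here encode proteins that cut antigen receptor genes and join the ends. They are Rag1, Rag2, Dntt, Dclre1c, Prkdc, Lig4, Xrcc4, Xrcc5, Xrcc6 and Nhej1. They were chosen by name, and all 10 were found among the 21887 protein-coding genes that RefSeq places on chromosomes 1 to 19, X and Y of the mouse build GRCm38.p6, the assembly that mm10 names. H3K79me2, dimethylation of histone H3 at lysine 79, was profiled by chromatin immunoprecipitation and sequencing (ChIP-seq) in C57BL/6 double negative thymocytes. Both cultures started from haematopoietic stem cells and were kept with Flt-3L and IL-7 on OP9-DL1, a stromal feeder line that displays a Notch ligand, until the DN3 stage. The control culture received the vehicle DMSO and the inhibitor culture received A939572, which blocks the stearoyl-CoA desaturase SCD1. Each condition is 1 ChIP library with 1 deposited peak list, so no difference below has a replicate check or a p-value, and the number of reads behind each list is unknown. The 2 input libraries were not analysed here. How many cultures or animals went into a library is not given in the sources used here.

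In V(D)J recombination, the RAG1 and RAG2 proteins cut the DNA beside V, D and J segments, and the broken ends are joined by classical non-homologous end joining. Ku70 and Ku80 hold the ends, the kinase DNA-PKcs and the nuclease Artemis open and trim them, terminal transferase adds bases, and XRCC4, ligase IV and XLF seal them. In the thymus this process assembles the beta, gamma and delta chains of the T cell receptor in double negative cells and the alpha chain later. H3K79me2 is written by DOT1L, mostly over the 5′ part of transcribed genes.

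The promoter letters of 5 of the genes are shown as examples of each kind of peak, not as the largest differences. Rag1, Rag2 and Dntt are the lymphoid-restricted members, and Xrcc6 and Xrcc5 are the Ku pair, of which Xrcc6 lies under the strongest peak of the set and Xrcc5 under none that is strong. Each line gives the 250 bases before the annotated start, 5′ to 3′ in the direction of transcription, from RefSeq (GRCm38.p6). Capitals mark matches on either strand to any of 6 short motifs. The E-box was searched as CAGNTG and the GATA motif as AGATAA. The RUNX motif was searched as TGTGGT and the NF-Y motif as CCAAT. The ETS motif was searched as CGGAAG and the TATA box as TATAAA.
Rag1 (chr2:101649533-101649782, minus strand): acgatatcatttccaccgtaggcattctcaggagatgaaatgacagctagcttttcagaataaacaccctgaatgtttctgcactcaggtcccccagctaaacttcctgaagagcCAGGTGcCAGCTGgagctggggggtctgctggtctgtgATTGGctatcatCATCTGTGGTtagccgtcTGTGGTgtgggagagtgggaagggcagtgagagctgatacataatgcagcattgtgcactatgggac
Rag2 (chr2:101624462-101624711, plus strand): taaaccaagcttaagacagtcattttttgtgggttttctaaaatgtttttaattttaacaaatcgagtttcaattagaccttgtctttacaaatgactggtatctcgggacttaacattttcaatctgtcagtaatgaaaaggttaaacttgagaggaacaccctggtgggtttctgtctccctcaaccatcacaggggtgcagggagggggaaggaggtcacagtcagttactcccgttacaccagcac
Dntt (chr19:41029025-41029274, plus strand): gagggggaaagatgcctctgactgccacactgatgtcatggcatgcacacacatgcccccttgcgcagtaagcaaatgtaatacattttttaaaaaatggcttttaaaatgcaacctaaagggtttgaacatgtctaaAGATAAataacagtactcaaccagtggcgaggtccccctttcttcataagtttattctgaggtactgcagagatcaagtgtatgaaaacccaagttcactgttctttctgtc
Xrcc6 (chr15:82016119-82016368, plus strand): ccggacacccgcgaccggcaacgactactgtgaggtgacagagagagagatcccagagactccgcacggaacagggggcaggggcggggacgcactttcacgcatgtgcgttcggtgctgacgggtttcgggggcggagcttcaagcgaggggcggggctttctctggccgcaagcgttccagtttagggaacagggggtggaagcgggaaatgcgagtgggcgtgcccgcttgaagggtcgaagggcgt
Xrcc5 (chr1:72307171-72307420, plus strand): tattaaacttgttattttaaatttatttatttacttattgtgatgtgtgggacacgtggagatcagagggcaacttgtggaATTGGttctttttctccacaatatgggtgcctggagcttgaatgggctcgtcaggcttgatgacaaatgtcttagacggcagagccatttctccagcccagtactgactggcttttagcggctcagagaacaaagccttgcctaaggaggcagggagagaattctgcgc
The Rag1 window held 3 E-box matches, 2 RUNX matches and 1 NF-Y match, and 1 E-box match shares its last letters with a RUNX match. The Dntt window held 1 GATA match, the Xrcc5 window 1 NF-Y match, and the Rag2 and Xrcc6 windows none. Of 17492 coding promoters with an entry, 41.6% held the E-box letters, 12.4% the RUNX letters, 36.5% the NF-Y letters, 9.10% the GATA letters, 17.2% the ETS letters and 12.4% the TATA letters. The promoters also differed in CG dinucleotides, which are dense in CpG islands. Rag1 and Rag2 had 3 each and Dntt 2, whereas Xrcc6 had 25, Xrcc4 26 and Lig4 27. Xrcc5 had 5, Dclre1c 8 and Nhej1 9, and the median over all coding promoters was 10. In the inhibitor list the windows of Rag1, Rag2, Dntt, Lig4, Xrcc4 and Xrcc6 lay wholly inside peaks that had a q no higher than 0.05, and those of Dclre1c, Xrcc5 and Nhej1 held no peak. Low and high CG counts were thus both found among the promoters inside such peaks. In the control list the windows of Rag1, Dntt, Lig4 and Xrcc4 lay wholly inside peaks with q above 0.05. That of Xrcc6 lay wholly inside a control peak with q no higher than 0.05. The Rag2, Dclre1c, Xrcc5 and Nhej1 windows held no control peak. The share over all promoter windows is not given here. No entry was found for Prkdc.

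The share of each gene body that lay under peaks was measured in both lists, and a gene was called marked when peaks covered at least 50% of it. Rag1 and Rag2 were marked in the control list, 2 of the 10 genes, against 5.47% of all coding genes. Rag1, Rag2, Dntt, Lig4 and Xrcc6 were marked in the inhibitor list, 5 of 10, against 26.1%. Peaks with q of at most 0.05 are called strong below, and the others weak. By strong peaks alone the inhibitor list still marked these 5 genes, against 19.6% of coding genes, and the control list marked 0, against 1.33%. At least 1 strong peak touched 8 of the 10 genes in the inhibitor list, against 34.7% of coding genes, and 1 of 10, Xrcc6, in the control list, against 3.92%. The covered share was at least 25 percentage points higher in the inhibitor list for Rag2, Dntt, Dclre1c, Lig4 and Xrcc6, 5 of 10, against 30.1% of coding genes. It was at least 25 points lower for Xrcc4 alone, against 3.07%. With strong peaks only, 6 of 10 genes were higher by that margin, Rag1 included and against 26.3% of coding genes. The median covered share of the 10 genes was 29.2% in the control and 65.2% with the inhibitor. Over all coding genes the medians were 2.24% and 0.446%. The median of the 10 differences was 21.6 points. It turned to -0.697 points without the 3 genes that overlap another coding gene. It was 0 when the control list was cut to its strong peaks and the inhibitor list to the same covered length. With 245 inhibitor peaks kept and strong control peaks at 1 of the 10 genes, that value says little. The 10 genes are a chosen set, so these counts describe them and are not a test.

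**Figure D1:**
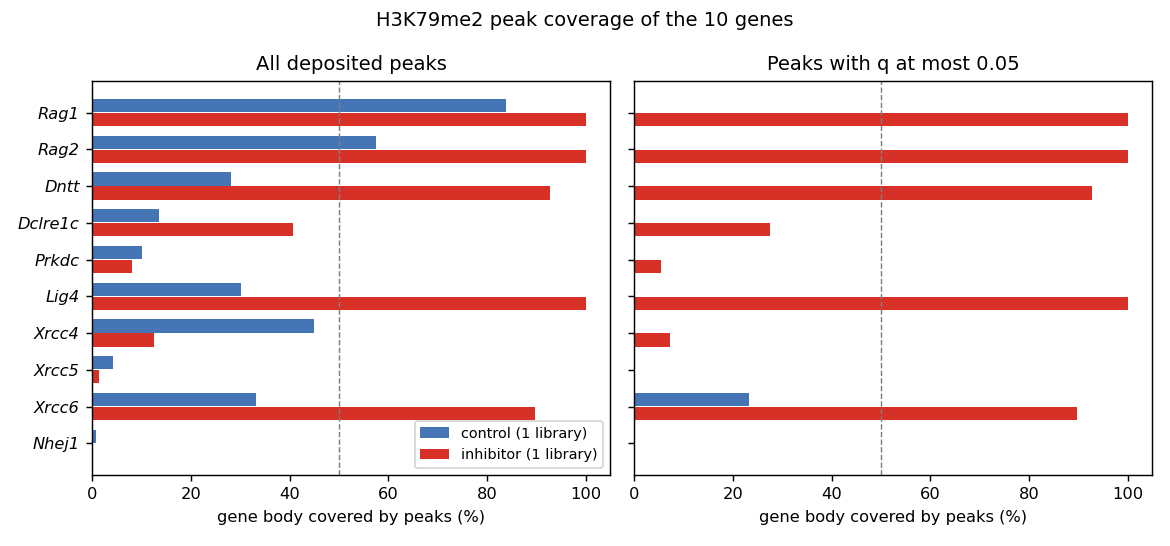
Share of each gene body (%) under H3K79me2 peaks in the control list (blue) and the inhibitor list (red), 1 library each, with all deposited peaks on the left and peaks with q of at most 0.05 on the right; the dashed line marks 50%. On the right the control bar is above 0 at Xrcc6 alone (23.3%), and Xrcc5 and Nhej1 have no bar in either list.

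Rag1 and Rag2, the recombinase pair, stand tail to tail on chromosome 2 with 5.72 kb between them and were covered by the same inhibitor peak. Rag1 (chr2:101638252-101649532, minus strand) was covered over 83.8% of its length in the control and 100% with the inhibitor. Rag2 (chr2:101624712-101632528, plus strand) was covered over 57.4% and 100%. All 4 control peaks over the pair were weak, with a −log10 q of at most 0.270 and a fold enrichment of 1.49 to 2.08, where fold is the authors' own ratio for a peak. The widest control peak, 9.77 kb, ran over the Rag1 start from 0.875 kb before it to 8.89 kb inside the gene. The inhibitor peak spanned 38.1 kb (chr2:101612561-101650664) with a fold of 2.59 and a −log10 q of 3.30. It began 12.2 kb before the Rag2 start, ran across both genes and the gap between them, and ended 1.13 kb beyond the Rag1 start. In the control list only 4.72% of the gap lay under a peak.

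The first 5 kb of transcription showed the same split by peak strength. The first 5 kb of Rag1 were covered over 100% in both lists, but by strong peaks over 0% in the control and 100% with the inhibitor. For Rag2 the shares were 43.9% and 100% with all peaks, and 0% and 100% with strong peaks. Rag2 overlaps Iftap, a gene on the opposite strand whose body was covered over 33.7% and 40.4%, so the peak cannot be given to Rag2 alone. Within 100 kb on either side of the pair the control list held 25 peaks, 0 of them strong, and covered 24.7% of the window. The inhibitor list held 10 peaks, 2 of them strong, and covered 32.4%. The other strong peak there spanned 11.4 kb (chr2:101678330-101689681), with a fold of 3.25 and a −log10 q of 6.70, and lay 53.6 to 65.0 kb from the Rag2 start on the Rag1 side. Its −log10 q was higher than that of the peak over the recombinase genes themselves.

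Dntt encodes terminal transferase, which adds bases to the cut ends without a template. It lies on chromosome 19 (chr19:41029275-41059525, plus strand) and was covered over 28.2% in the control and 92.8% with the inhibitor. A control peak of 5.95 kb sat over the start with a fold of 1.86 and a −log10 q of 0.714, which is the highest −log10 q of any weak control peak over the 10 genes. A further control peak of 4.68 kb lay 20.5 to 25.2 kb inside the gene and had a −log10 q of 0. In the inhibitor list a single peak of 46.2 kb (chr19:41011174-41057344, fold 3.02, −log10 q 6.26) began 18.1 kb before the start and reached 28.1 kb into the gene. It also took in the pseudogene Gm4269 and touched the non-coding gene C330026H20Rik, whereas the neighbour Opalin beyond the 3′ end held no inhibitor peak. At the first 5 kb the difference was 23.1 points (76.9% and 100%), against 64.6 points over the body.

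**Figure D2:**
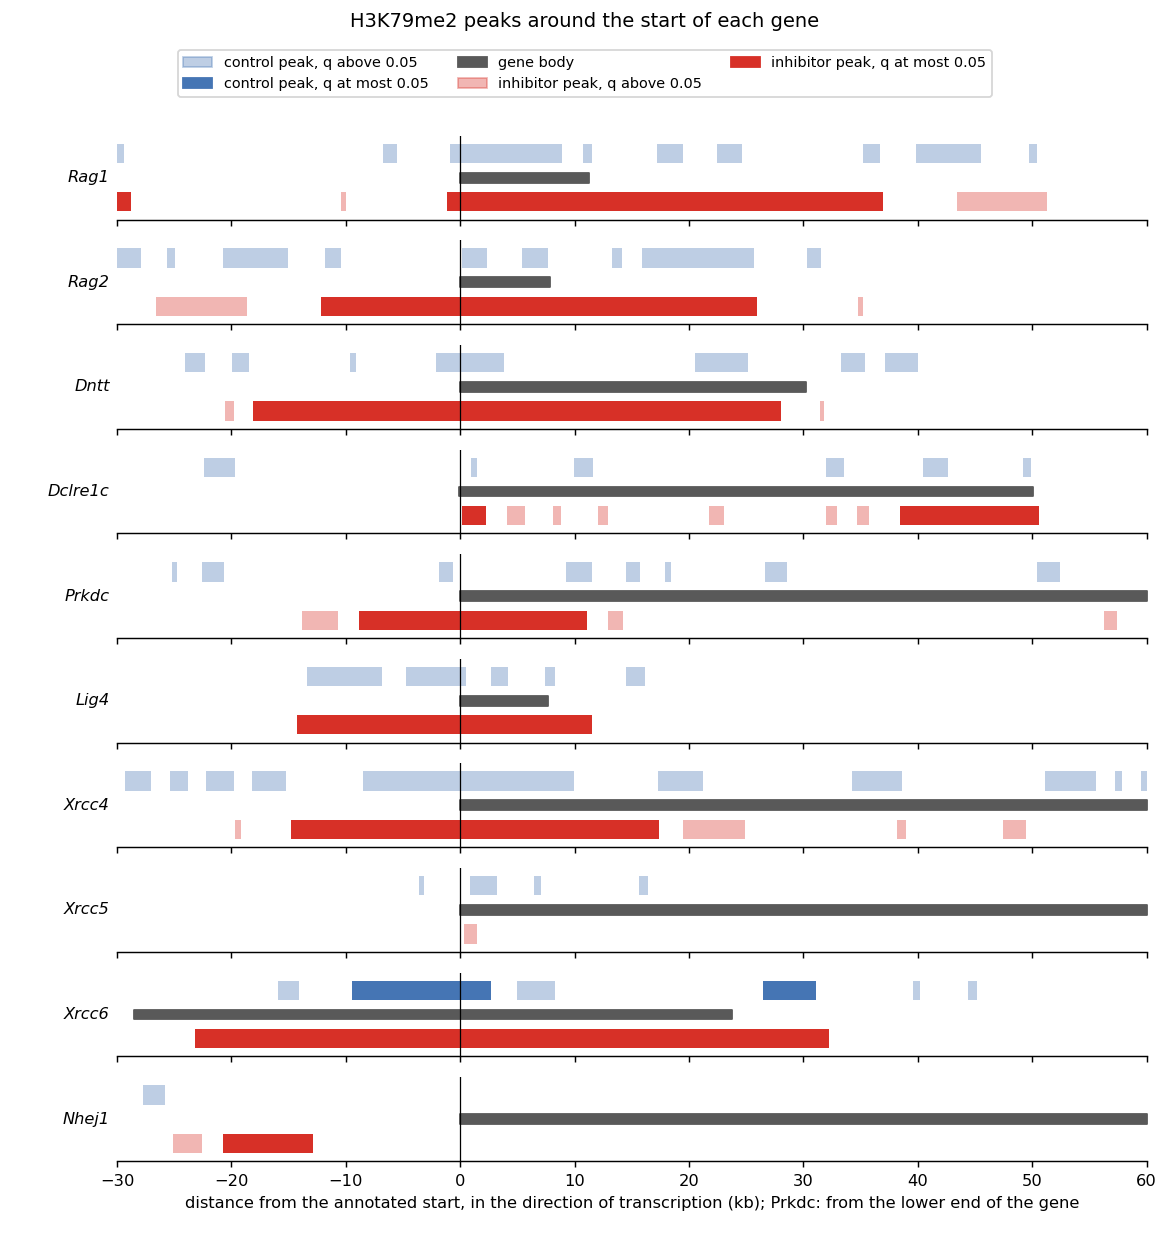
Peaks around the annotated start of each gene in kb along the direction of transcription, control above (blue) and inhibitor below (red) the gene body (grey); pale bars are peaks with q above 0.05 and full bars peaks with q of at most 0.05. Prkdc is drawn from the lower end of its coordinates. Full red bars cross the annotated start at Rag1, Rag2, Dntt, Lig4, Xrcc4 and Xrcc6, and the full blue bar over a gene body is at Xrcc6. A full red bar also crosses the lower end of Prkdc, for which no annotated start was found.

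The Ku subunits bind DNA ends as a pair, but their genes had unlike peaks. Xrcc6, which encodes Ku70 (chr15:81987833-82040085, plus strand), was covered over 33.2% in the control and 89.8% with the inhibitor. It held the only strong control peak of the set, 12.2 kb wide (chr15:82006915-82019084) with a fold of 2.26 and a −log10 q of 1.92, from 9.45 kb before the annotated start, on the Desi1 side, to 2.71 kb inside. The inhibitor peak spanned 55.5 kb (chr15:81993162-82048627) with a fold of 4.41 and a −log10 q of 14.6, the highest of both lists over these genes and rank 246 of 35018 inhibitor peaks. The RefSeq body of Xrcc6 begins well before the annotated start and overlaps Desi1 on the opposite strand, which was covered over 47.0% and 97.3%. The inhibitor peak also covered Snu13 on the 3′ side, which strong control peaks covered over 73.5%, so the peak cannot be given to Xrcc6 alone. Counted from the annotated start, Xrcc6 was covered over 25.6% and 100%.

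Xrcc5, which encodes Ku80 (chr1:72307417-72394953, plus strand), was covered over 4.29% in the control and 1.38% with the inhibitor. Its 3 control peaks were 0.572 to 2.40 kb wide with a −log10 q of at most 0.00145. Its single inhibitor peak was 1.20 kb wide, lay 0.303 to 1.51 kb inside the gene and had a fold of 1.57 and a −log10 q of 0.168. The first 5 kb were covered over 48.0% and 24.1%, and by strong peaks over 0% in both lists.

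Prkdc and Dclre1c encode the kinase DNA-PKcs and the nuclease Artemis, which together open the hairpins that RAG leaves. Prkdc (chr16:15637444-15842239) was covered over 10% and 7.99% of its 205 kb. All 11 control peaks were weak, and the lowest, median and highest widths were 0.394, 1.88 and 6.06 kb. In the inhibitor list 6 peaks were weak and 1 was strong, a peak of 19.9 kb (chr16:15628600-15648485, fold 2.30, −log10 q 1.79). This peak lay across the end of Prkdc that faces Mcm4, a helicase subunit gene 43 bp away, and 11.0 kb of it fell inside Prkdc. Mcm4 was itself covered over 9.15% and 86.6%. At the better covered 5 kb end (the end with more coverage over both lists together) Prkdc was covered over 0% and 100%, while the whole body showed a difference of -2.03 points.

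Dclre1c (chr2:3424061-3474211, plus strand) was covered over 13.5% and 40.6%. The 5 control peaks were all weak, with a −log10 q of at most 0.451. Of the 8 inhibitor peaks, 2 were strong. The first was 2.11 kb wide and lay 0.141 to 2.25 kb inside the gene, with a fold of 2.29 and a −log10 q of 2.37. The second was 12.1 kb wide (chr2:3462599-3474687, fold 2.62, −log10 q 3.51) and lay over the 3′ end, where Dclre1c overlaps Suv39h2, an H3K9 methyltransferase gene read from the opposite strand. Suv39h2 was covered over 23.3% in the control and 73.7% with the inhibitor, so the larger part of the Dclre1c coverage cannot be told apart from that of Suv39h2. By strong peaks the first 5 kb of Dclre1c were covered over 0% and 42.3%.

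**Figure D3:**
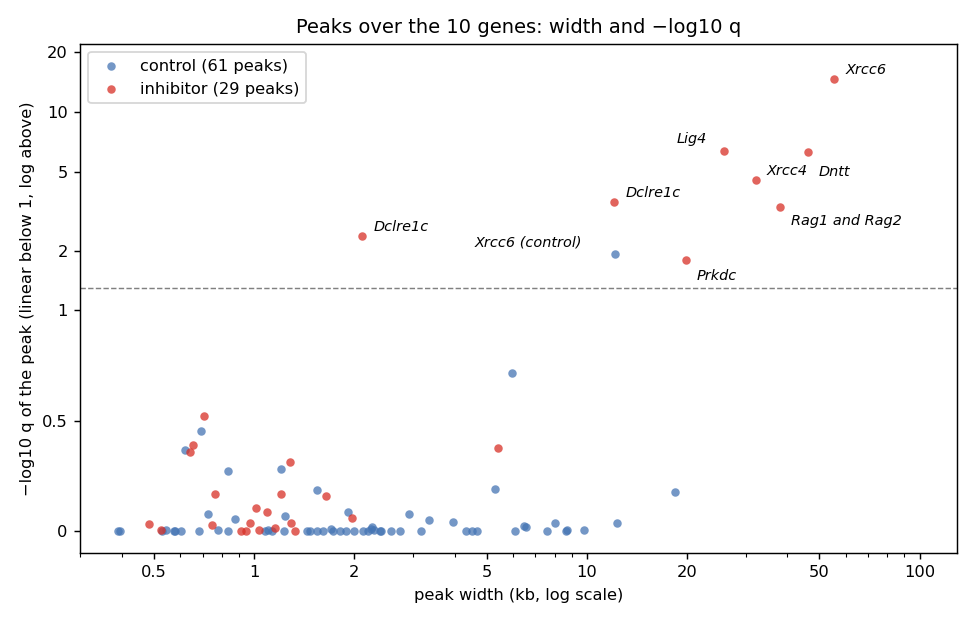
Width (kb, log scale) and −log10 q (linear below 1, log above) of each peak over the 10 genes, control in blue (61 peaks) and inhibitor in red (29 peaks); the dashed line marks q of 0.05 and the peaks above it carry gene names. Above the line there are 8 inhibitor peaks and 1 control peak, and 7 of the inhibitor peaks are at least 12.1 kb wide.

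The genes of the sealing step were Lig4, Xrcc4 and Nhej1. Lig4, the DNA ligase of the pathway (chr8:9970020-9977680, minus strand), was covered over 30.2% in the control and 100% with the inhibitor. Its 3 control peaks had a −log10 q of at most 0.191, and the widest, 5.30 kb, had 10.1% of its length inside Lig4 and the rest on the side of Abhd13, whose coordinates begin 36 bp from the Lig4 start. The inhibitor peak spanned 25.8 kb (chr8:9966126-9991951, fold 3.33, −log10 q 6.39), and 29.7% of it lay inside Lig4. Abhd13, transcribed in the opposite direction, was covered over 78.4% and 98.6%.

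Xrcc4, the scaffold of ligase IV (chr13:89848914-90089608, minus strand), had a covered share of 44.9% without and 12.5% with the inhibitor, and no other member was lower by at least 25 points. In length this was 30.0 kb against 108 kb of a gene of 241 kb. The control coverage came from 29 weak peaks over the gene, with widths from 0.390 to 18.5 kb, a median of 2.57 kb, and no −log10 q above 0.367. With the inhibitor, 8 peaks were weak and 1 was strong, 32.2 kb wide (chr13:90072193-90104414, fold 2.82, −log10 q 4.52), from 14.8 kb before the start to 17.4 kb inside the gene. With strong peaks alone the order turned, to 0% in the control and 7.24% with the inhibitor. The first 5 kb were covered over 100% in both lists. Beyond the start, the strong peak also covered Tmem167, a gene 58 bp away on the opposite strand (60.8% and 60.4%), and the small nucleolar RNA gene Gm24507. By distance from the start, strong inhibitor peaks covered 100% of Xrcc4 from 5 to 10 kb, 74.2% from 10 to 20 kb and 0% from 20 to 50 kb. The means over coding genes long enough for these bins were 29.5%, 24.9% and 18.5%.

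Nhej1, which encodes XLF (chr1:74967346-75125226, minus strand), held 1 weak control peak of 1.10 kb, deep inside the gene, and no inhibitor peak, which gives 0.697% and 0%. Its start stands 314 bp from Slc23a3, which held no peak in either list. Farther upstream, inhibitor peaks covered Cnppd1 over 67.0% and Retreg2 over 63.7%, and none reached Nhej1. Xrcc5 and Nhej1 were therefore the members without a strong peak in either list.

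Taken by their first 5 kb, a measure that does not penalise long genes, 7 of the 9 genes with an annotated start were covered over at least 50% in the inhibitor list, against 37.3% of coding genes. In the control list 4 of 9 were, against 13.8%. With strong peaks these were 6 of 9 (Rag1, Rag2, Dntt, Lig4, Xrcc4 and Xrcc6), against 30.3%, and 1 of 9 (Xrcc6), against 3.11%. The members were also set beside coding genes of like length. The 4 members under 40 kb were all marked in the inhibitor list, against 26.3% of coding genes of that length. Of the 3 members from 40 to 100 kb, 1 was marked, against 30.4%, so the share over coding genes did not fall steadily with length. Of the 3 members over 100 kb, 0 were marked, against 18.4%, and 2 held a strong inhibitor peak, against 30.9%. At Rag1 and Rag2, Dntt, Dclre1c, Lig4, Xrcc4, Xrcc6 and Prkdc a strong inhibitor peak ran past a gene end into a neighbour or a gap. A coding neighbour stood within 1 kb, without overlap, of 4 of the 10 genes (Prkdc, Lig4, Xrcc4 and Nhej1), against 14.1% of coding genes, and 3 of 10 overlapped a coding gene (Rag2, Dclre1c and Xrcc6), against 17.5%.

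Other genes of the pathway were counted from 6 lists with 58 genes in all. Strong peaks touched 43 of the 58 with the inhibitor, against 34.7% of coding genes, and 11 in the control, against 3.92%. The covered share was higher with the inhibitor by at least 25 points at 36 genes, against 30.1%. It was lower by that margin at 0, a count near the 3.07% of coding genes. Accessory end-joining factors, which process damaged ends or tune the choice of pathway, held strong peaks at 6 of 9 genes with the inhibitor and 0 of 9 in the control. Cyren, a regulator of end joining that overlaps another coding gene, was covered over 0% in the control and 100% with the inhibitor. Break-response genes held strong inhibitor peaks at 10 of 15 and strong control peaks at 2. Rnf8, a ubiquitin ligase of the break response, was covered over 3.60% and 78.8%, and Rif1, which protects ends from resection, over 18.2% and 88.9%. Alternative end-joining genes held them at 6 of 8 and 1 of 8, with the flap nuclease Fen1, which overlaps a coding gene, covered over 38.7% and 100% and the break sensor Parp1 over 11.3% and 47.1%.

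Homologous recombination genes, which repair breaks from a sister chromatid, held strong peaks at 8 of 12 with the inhibitor and 0 of 12 in the control. Their largest differences were at Xrcc2 (13.0% and 81.4%) and Xrcc3 (0% and 55.4%), both under weak inhibitor peaks, and Xrcc3 overlaps a coding gene. Genes for RAG cofactors and RAG turnover held strong peaks at 6 of 6 and 2 of 6. The kinase gene Cdk2 was covered over 0% and 77.5%, and Dcaf1, a ubiquitin ligase adaptor, over 8.78% and 83.1%, and both overlap a coding gene. Genes of transcription factors known to act on Rag expression held strong control peaks at 6 of 8 and strong inhibitor peaks at 7 of 8. Tcf3, which encodes E2A, was covered over 5.71% and 70.6%, and Foxo1 over 51.8% and 97.7%, the latter by weak peaks alone in both lists. No test of a difference between lists of genes was made.

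**Figure D4:**
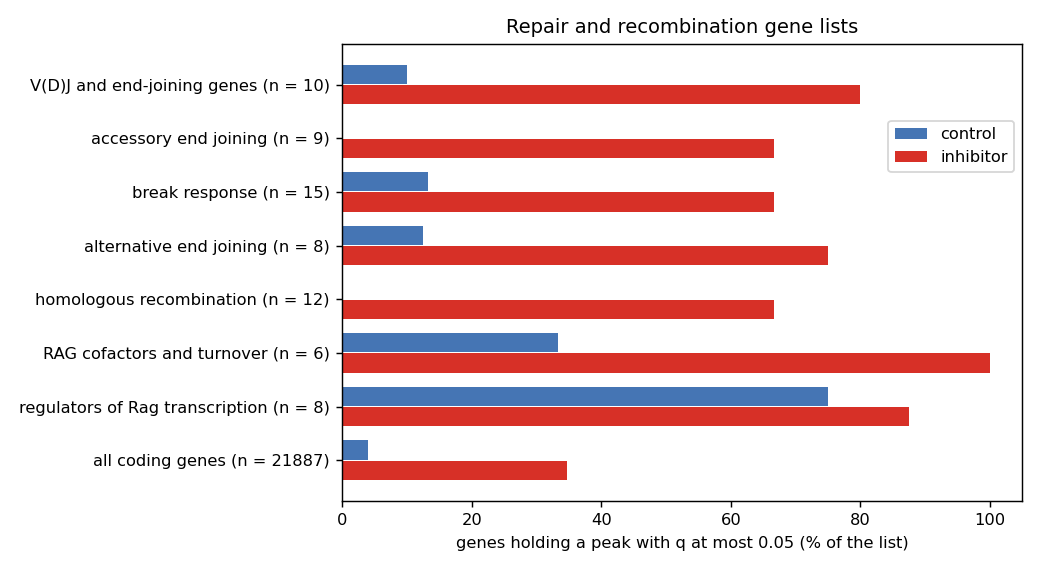
Genes holding at least 1 peak with q of at most 0.05, as a share of each list (%), for the control (blue) and inhibitor (red) lists; numbers of genes stand beside the names. For the 10 recombination and end-joining genes the red bar stands at 80% and the blue bar at 10%, and over all coding genes at 34.7% and 3.92%.

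The antigen receptor loci, the substrates of the recombinase, were read in the same way over the span from the first to the last D, J or C segment of each locus. The Trb span on chromosome 6 was covered over 100% by strong peaks in both lists, by a control peak of 28.1 kb (chr6:41530214-41558341, fold 4.65, −log10 q 22.8) and an inhibitor peak of 50.1 kb (chr6:41515995-41566064, fold 4.57, −log10 q 19.1). Strong peaks covered 57.2% of the Trd span in the control and 89.1% with the inhibitor, and 56.5% and 90.2% of the Trg span. The strongest of these at Trg, over its Trgc2 and Trgj2 segments, had a fold of 6.60 and a −log10 q of 35.1 in the control list. The Tra span, whose joining takes place after the DN3 stage, was covered by strong peaks over 0% and 5.04%. At Igh the shares were 0% and 5.09%, with no segment of the table under a strong peak, and at Igk and Igl they were 0% in both lists. The Trb, Trd and Trg spans therefore carried strong peaks in the control list, where 9 of the 10 recombination and joining genes had none. Strong control peaks touched only 3.92% of all coding genes. Their absence is thus common among coding genes and does not set these 9 genes apart.

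Over the span of the Trb V segments the covered share was close in both lists with all peaks, 37.7% in the control and 36.5% with the inhibitor. The lists differed in strong peaks. This span runs to Trbv31, beyond the C segments, so it is that of the whole locus and holds the D, J and C segments. Any peak touched 16 of 35 Trbv segments in the control and 32 with the inhibitor. Strong peaks touched 30 of 35 Trbv segments with the inhibitor and 3 of 35 in the control. Both counts include Trbv31, which lay under the peak over the D, J and C segments. The inhibitor list held a strong peak of 106 kb from Trbv7 to Trbv19 (chr6:41074850-41180822, fold 3.45, −log10 q 8.85), where the control list held 1 of 8.66 kb over Trbv12-2 and Trbv13-2 with a fold of 3.96 and a −log10 q of 14.0. Strong peaks touched 5 of 130 Trav segments with the inhibitor and 0 in the control. Over the Igh V region the weak control peaks were dense, 296 peaks covering 30.4%, and the inhibitor list held 14 peaks covering 0.766%. V segments are near-identical copies in part, and how reads with several matching places were treated is not given in the sources used here.

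**Figure D5:**
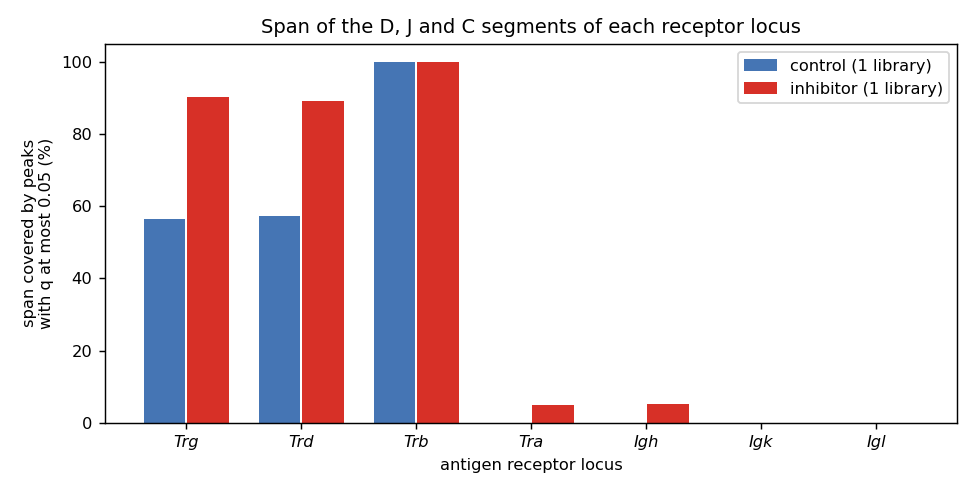
Share (%) of the span of the D, J and C segments of each antigen receptor locus under peaks with q of at most 0.05, control in blue and inhibitor in red, 1 library each. Trb reaches 100% in both lists, Trd and Trg are above 56% in both, and Tra and the immunoglobulin loci are at most 5.09%.

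The labelled cell type was checked against fixed markers. Of 7 DN3 thymocyte markers, strong peaks touched 5 in each list, and Ptcra and Cd3e in neither. Weak peaks covered Ptcra over 18.1% in the control and 47.1% with the inhibitor, and Cd3e over 0% and 100%. Of the 5 B lineage and 5 myeloid markers, strong peaks touched 0 in either list. Of 5 feeder markers they touched 1, Pdgfrb, in the inhibitor list alone (44.2% of its body). Over all coding genes strong peaks touched 3.92% in the control and 34.7% with the inhibitor. A control count of 0 in lists this short is near that share and tells little about the cell type. B cell precursors also use Rag1, Rag2 and Dntt. Weak peaks covered the 5 B lineage markers over 0% to 2.66% of their bodies in the control and 0% to 16.4% with the inhibitor. They covered the 5 myeloid markers over 0% to 23.8% in the control and 0% to 2.62% with the inhibitor. They covered the 5 feeder markers over 0% to 9.18% in the control. The myeloid median was 9.39% in the control, against 2.24% over all coding genes. The B lineage and feeder medians in the control were both 0%. Weak control peaks thus lay on some markers of other lineages too, above the median of coding genes in the myeloid list alone. The part of feeder chromatin in the inhibitor list was not tested. Over the whole lists 0.643% of 124962 control peaks and 18.6% of 35018 inhibitor peaks were strong, covering 11.1 and 153 Mb. All peaks together covered 235 Mb in the control list and 234 Mb in the inhibitor list. The gap in strong peaks lies between the same 2 lists as the differences above and cannot be told apart from the condition. Its part in those differences was not tested.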

How the data were processed

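The 2 files are broad peak lists, 1 per ChIP library. Per the submitters' processing notes, BWA, MACS2 2.1.0 and mm10 were used, with no word on which did what. Their options were not given in the sources used here. A deposited peak carries a fold enrichment (a ratio), −log10 of p and of q, and a deposited score that is 10 times −log10 q in whole numbers. The lowest deposited −log10 p was 1.00 in both lists. The authors' fold and q were never compared across lists by a test.

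Touching peaks were merged and intersected with RefSeq gene bodies (GRCm38.p6) in Python 3.11.15, with numpy 2.4.6 and pandas 2.3.3. Annotated starts and strands came from RefSeq promoter entries, present for 17492 of 21887 coding genes. With several starts, the one farthest 5′ was taken. The coverage step was tested on simulated data. With 1 library per condition no test was run, and differences of at least 25 points were counted. Shares over chosen genes are given without intervals.

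The members, lists and rules were chosen with earlier results of these data known. Named genes were the 10 members, up to 2 genes per pathway list and direction with the largest difference of at least 25 points, and neighbours within 20 kb that share a peak with a member. A gene that this rule names is not reported here. Opalin, Slc23a3, Cnppd1 and Retreg2 share none and were chosen after their values were seen. Ptcra, Cd3e and Pdgfrb were named as the markers whose strong peaks depart from the rest of their lists. Alternatives changed the peaks kept, the merging, the window, the threshold and the genes counted.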

Additional observations from a re-analysis of the deposited data

How the results depend on the processing

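The read depth is unknown and each condition has 1 library, so no alternative could leave out a replicate. No paired analysis was possible because each condition has 1 library. Counts are given as members marked in control, marked in inhibitor and at least 25 points higher in inhibitor, then the median difference in points. The reported values were 2, 5, 5 and 21.6. Peaks with q of at most 0.05 gave 0, 5, 6 and 46.9. A −log10 q of at least 5 gave 0, 3, 3 and 0, and so did a fold of at least 3. In a further setting the control list was cut to its strong peaks, and the inhibitor list to its 245 strongest, to match their covered length. All 4 values were then 0, and Xrcc6 turned to -23.3 points because its peak ranked 246, just outside. Merging within 1 kb left the 4 values as reported. The better covered 5 kb end gave 3, 8, 5 and 38.7, and Prkdc turned from -2.03 to 100 points there. The first 5 kb gave 4, 7, 4 and 23.1 for 9 genes. Without the 3 genes that overlap another coding gene the values were 1, 3, 2 and -0.697, so the sign of the median rested on them. Any covered base marked 10 and 9 members, and 80% of the body marked 1 and 5. In the control, any peak touched 42.9% of coding genes under 40 kb, 84.6% from 40 to 100 kb and 93.3% over 100 kb. With the inhibitor these shares were 46.2%, 65.8% and 64.7%. Shares over coding genes are not given here for the 80% rule, the stricter q and fold cuts or the better covered end. The counts under those rules are therefore not read as a result about the members. Counting from the annotated start, added after the data were seen, gave 2, 5, 5 and 27.1. Xrcc4 turned from -32.4 to 7.24 points with peaks at q of at most 0.05. Where no value shows it, the cause was not tested.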
